A study of Mus musculus with 6 samples.

Results

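Of the genes that build and restrain the transcription factor NF-kB, 32 were followed in splenic follicular B cells of mice: the Rel family subunits, their IkB inhibitors, the IKK and TAK1 kinases, the TRAF adaptors and the ubiquitin enzymes around them. They were chosen by gene symbol. All 32 were found among the 24346 gene symbols of the expression tables, and all 32 passed the filter on low values (1 FPKM or more in 3 or more libraries), which 10122 genes passed. FPKM counts the fragments of a transcript relative to its length and to the mapped fragments of the library, so levels can be compared between genes.

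RNA was sequenced from 6 libraries of sorted cells, 3 from B6 control mice (WT below) and 3 from mice homozygous for G9gl heavy and light chains, all aged 8 weeks. G9gl is a knock-in of the germline form of a lupus-derived antibody to double-stranded DNA, and the comparison asked what sets apart the anergic B cells that carry it. The sort kept B220+ CD93- cells with low CD21 and high CD23. No treatment is given in the labels. Nor do they say whether the 3 libraries of a genotype are 3 animals, so every p below rests on a spread between libraries that may be partly technical. Immunoglobulin genes, which would check the genotype, were not analysed here.

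NF-kB dimers wait in the cytoplasm, held by IkB proteins or by the unprocessed precursor of their own subunits. In the canonical pathway the IKK kinase, switched on by TAK1 and by linear ubiquitin chains, marks IkB for destruction and frees dimers of RelA, c-Rel and p50. In the alternative pathway the kinase NIK accumulates when receptors such as the BAFF receptor or CD40 draw TRAF3 and cIAP away from it, and dimers of RelB with processed Nfkb2 product form slowly. In B cells the first follows antigen receptor, Toll-like receptor and CD40 signals, the second supports survival of mature cells. Many inhibitors, among them Nfkbia, Nfkbie and Tnfaip3, are themselves targets of NF-kB and act as feedback.

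These feedback targets are known by the kB sites before their starts, so the sequence upstream of the members is shown first. RefSeq windows of GRCm38.p6 were matched by symbol for 26 of the 32 members, and Nfkb1, Relb, Nfkbiz, Ikbkb, Tab1 and Sharpin had no entry. The 250 bases before each start were searched on both strands for 1 strict kB pattern: GGGA, any 3 bases, then TCC or CCC. Letters that depart from it were not counted, so a window without a match can still hold a kB site. Letters that fit the pattern on both strands, palindromes among them, were counted once. At least 1 match stood in 8 of 26 members (30.77%), against 12.02% of 7811 tested genes and 9.48% of all 27025 genes with a window, where a gene counts if any of its windows holds a match. By later call it was 3 of 5 members higher in G9gl, 2 of 5 lower and 3 of 16 not passing. A match is a description of letters, not a site shown to be bound. Whole windows are shown for 3 members whose window holds none of their own annotated exons: Nfkbia and Tnip1, called in opposite directions with 1 match each, and Traf1, the member with the largest change and no match. The match is in capitals.
Nfkbia upstream (chr12:55492648-55492897, minus strand): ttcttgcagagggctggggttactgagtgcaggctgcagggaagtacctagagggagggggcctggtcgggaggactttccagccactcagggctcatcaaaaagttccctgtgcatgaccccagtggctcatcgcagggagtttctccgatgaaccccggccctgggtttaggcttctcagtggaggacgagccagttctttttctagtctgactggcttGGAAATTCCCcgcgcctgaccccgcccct
Tnip1 upstream (chr11:54962941-54963190, minus strand): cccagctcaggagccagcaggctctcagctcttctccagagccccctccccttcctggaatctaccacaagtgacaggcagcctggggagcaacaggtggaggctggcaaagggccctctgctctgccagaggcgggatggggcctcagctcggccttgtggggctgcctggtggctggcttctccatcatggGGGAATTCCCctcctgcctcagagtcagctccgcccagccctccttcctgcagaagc
Traf1 upstream (chr2:34961773-34962022, minus strand): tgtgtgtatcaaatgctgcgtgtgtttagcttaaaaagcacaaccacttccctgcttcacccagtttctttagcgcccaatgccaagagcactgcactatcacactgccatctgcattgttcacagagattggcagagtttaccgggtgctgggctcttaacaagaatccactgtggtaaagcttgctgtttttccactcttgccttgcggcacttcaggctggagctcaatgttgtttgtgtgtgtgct

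The Nfkbia match begins 29 bases before the start, and its letters occur in 28 windows of the whole table. Tnip1 and Nfkb2 share the same palindrome, found in only 11 of 32851 windows, at 57 bases before the Tnip1 start and 39 bases before the first Nfkb2 start. As described further on, Nfkb2 was called higher and Tnip1 lower, calls that were lost in 6 and 9 of 17 other settings. The part of these letters in either call was not tested. For Nfkb2 and the other members with a match, the match and 10 bases on either side are shown (2 of the 5 matches of Nfkb2). The first Nfkb2 window lies wholly within exons of other Nfkb2 transcripts, and the window of its most downstream start holds the letters of the classical site of the kappa light chain enhancer.
Nfkb2, first start (chr19:46304688-46304717, plus strand): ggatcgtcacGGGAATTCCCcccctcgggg
Nfkb2, most downstream start (chr19:46305695-46305724, plus strand): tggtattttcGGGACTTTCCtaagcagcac
Tnfaip3 (chr10:19015516-19015545, minus strand): gactcacgcgGGGACACCCCggggcgggac
Rel (chr11:23771042-23771071, minus strand): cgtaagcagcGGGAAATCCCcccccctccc
Nfkbid, second start (chr7:30422170-30422199, plus strand): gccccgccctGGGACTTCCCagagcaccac
Cyld (chr8:88696863-88696892, plus strand): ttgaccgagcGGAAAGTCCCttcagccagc
Map3k7 (chr4:31964005-31964034, plus strand): ccccgggtcaGGAAATTCCCcgctcgggtc

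Nfkb2, Nfkbia, Nfkbie, Nfkbiz, Traf1 and Tnfaip3 rose in G9gl, and Nfkbid, Ikbkb, Traf3, Traf5, Map3k14 and Tnip1 fell. That is 6 of 32 higher and 6 lower at an adjusted p under 0.05 (limma on log2(FPKM + 1), Benjamini-Hochberg over 10122 genes), while of all tested genes 11.8% were higher and 11.6% lower, 23.4% in either direction. The median log2 fold change was 0.0064 over the 32 members and -0.0022 over all tested genes. With FPKM rescaled to a common total per library (TPM), the median of all genes moved by -0.12 and the share of calls that were higher went from 50.4% to 22.6%. The members then gave 5 higher and 10 lower, beside 7.21% and 24.6% of tested genes (31.8% in either direction). Libraries of the 2 groups did not overlap for 8 members with G9gl above and 9 with G9gl below, against 20.3% and 20.5% of tested genes. In bulk RNA, fewer cells that express a gene and less of its RNA per cell cannot be told apart.

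**Figure D1:**
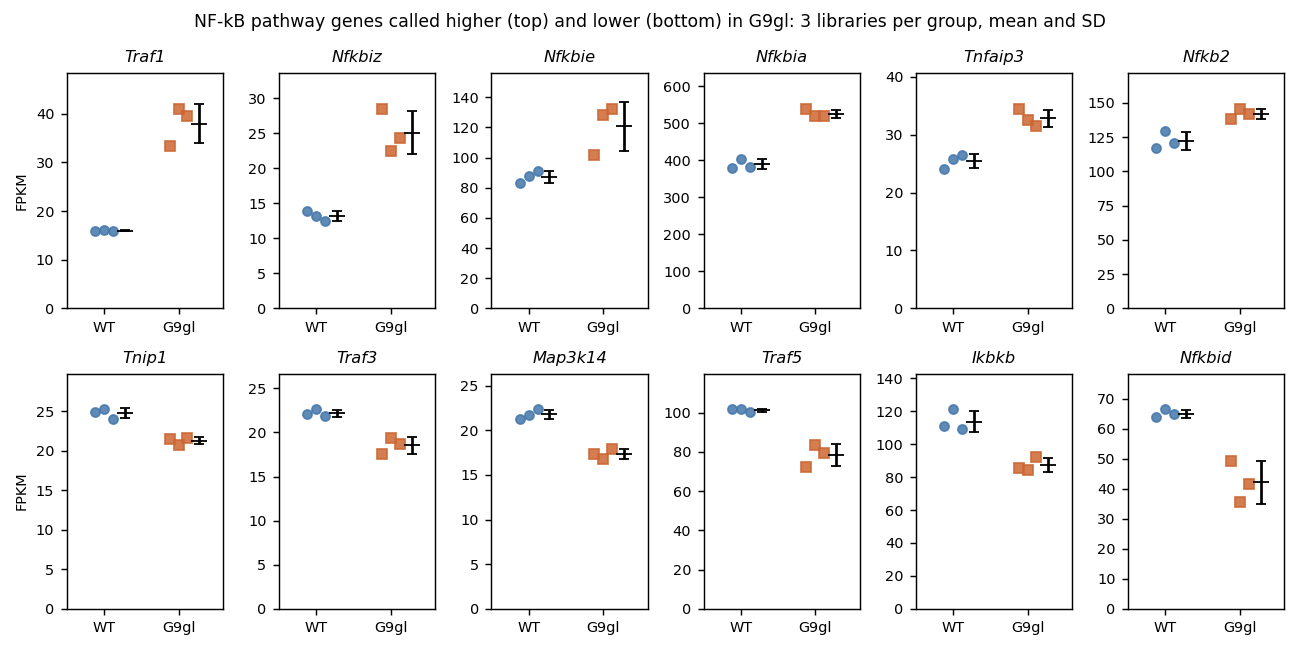
FPKM (vertical axes, from 0) of the 6 members called higher and the 6 called lower in G9gl. Circles are the 3 WT libraries, squares the 3 G9gl libraries in replicate order 1 to 3, and bars give mean and SD. The groups do not overlap in any of the 12 panels, and the fold difference is largest for Traf1.

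The spacing of low values put the depth roughly at 9460000 to 10950000 fragments per library, so that 1 FPKM in a transcript of 2 kb would rest on 18.9 to 21.9 fragments. Summed FPKM was 603054 to 611557 in WT and 657759 to 671533 in G9gl. Cd79a, a defining B cell gene, was high in both groups (2497 ± 114 FPKM in WT and 2213 ± 75.7 in G9gl, SD, n = 3 per group here and for every ± on FPKM below). Of 9 follicular B cell markers 6 were lower and 0 higher in G9gl. Of 12 tested macrophage markers (20 on the list) 10 were higher and 0 lower, and the list's summed level went from 24.2 to 31.9 FPKM in WT to 63.0 to 70.0 FPKM in G9gl. Marco, Siglec1, Fcgr1 and Timd4, which mark tissue macrophages, were each at 0 in 1 or more libraries and at most 0.286 FPKM in the rest, and no marker of the list was at 0 in all 6. Of 16 tested stress genes (immediate early and heat-shock genes that tissue dissociation induces), 6 were higher and 2 lower, with a summed level of 3911 to 4156 FPKM in WT and 4698 to 5521 FPKM in G9gl. Markers called higher and lower were 0 and 0 of 2 tested for T cells, 2 and 0 of 2 for NK cells, 3 and 0 of 4 for dendritic cells, 1 and 0 of 2 for neutrophils and 2 and 0 of 4 for plasma cells. For marginal zone and immature B cells they were 1 and 3 of 7. Beside these counts stand 11.8% of all tested genes higher and 11.6% lower. The part of these lists in the results below was not tested.

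Among the 5 subunits, Nfkb2 alone passed. It encodes p100, which is both the precursor of p52 and an inhibitor of RelB dimers, and lies on chromosome 19, 46304320 to 46312385 (mm10). Its level was 117, 129.9 and 121 FPKM in WT replicates 1, 2 and 3 and 138, 146 and 142 FPKM in the G9gl replicates. Every G9gl library was above every WT library, a 1.16-fold rise (log2 fold change 0.21 ± 0.057 SE, limma adjusted p 0.025). The call was lost without WT replicate 1 or 3, without G9gl replicate 2 or 3, after quantile normalization and after rescaling to a common total, where the log2 fold change was 0.079. Exons of Nfkb2 share 299 bases with Psd on the opposite strand, which the library type cannot separate, and Psd averaged 2.85 FPKM in WT against 3.82 FPKM in G9gl.

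The other subunits did not pass. Rela, which encodes the main activating subunit, had 101, 106 and 97.4 FPKM in WT and 108, 108 and 106 FPKM in G9gl, where only WT replicate 2 reached into the G9gl range (adjusted p 0.31, 95% interval of the log2 fold change -0.04 to 0.20). Relb, the partner of p52, had 78.5, 90.2 and 89.2 FPKM in WT and 93.7, 92.4 and 88.9 FPKM in G9gl, where WT replicate 1 was lowest (adjusted p 0.34, interval -0.05 to 0.24). Rel encodes c-Rel, the subunit most typical of lymphocytes. It had 45.5, 43.9 and 34.7 FPKM in WT and 40.1, 35.1 and 34.3 FPKM in G9gl (adjusted p 0.29, interval -0.41 to 0.07). Nfkb1, the gene of p105 and p50, had 42.4, 32.8 and 30.3 FPKM in WT and 30.9, 32.1 and 31.2 FPKM in G9gl (adjusted p 0.38, interval -0.39 to 0.10). Nfkb1 in WT replicate 1 stood above the other 5 libraries, which lay within 30.3 to 32.8 FPKM.

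On the FPKM scale the order of the subunits by group mean was Nfkb2, Rela, Relb, Rel and Nfkb1 in both genotypes. Neighbours in that order were apart by more than either SD except Rel and Nfkb1 in WT, at 41.4 ± 5.86 and 35.2 ± 6.39 FPKM. As a share of the summed FPKM of the 5 genes, Rela was nearly constant, from 26.2% to 26.4% in all 6 libraries. Nfkb2 took 30.5%, 32.2% and 32.4% in WT and 33.6%, 35.2% and 35.3% in G9gl. Rel took 9.32% to 11.8% in WT and 8.48% to 9.75% in G9gl. The summed level of the 5 genes was 387 ± 15.6 FPKM in WT and 409 ± 6.004 FPKM in G9gl.

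**Figure D2:**
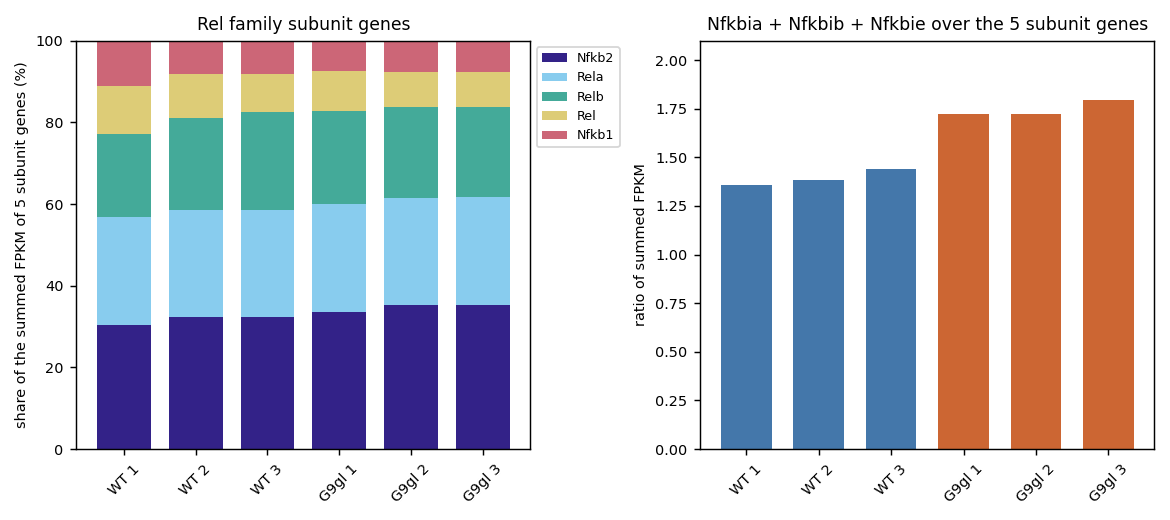
Left, share of each Rel family gene in the summed FPKM of the 5 (%), per library. Right, ratio of the summed FPKM of Nfkbia, Nfkbib and Nfkbie to that sum, with WT in blue and G9gl in orange. Rela stays at 26.2% to 26.4% in every library, while the ratio is 1.36 to 1.44 in WT and 1.72 to 1.797 in G9gl.

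The classical IkB proteins hold dimers in the cytoplasm, and 2 of their 3 genes rose. Nfkbia, which encodes IkB alpha, the fastest feedback inhibitor, was the most abundant member, at percentile 98.2 of tested genes by mean level (chromosome 12, 55489410 to 55492647). It had 380.1, 404 and 382 FPKM in WT and 538, 519 and 518 FPKM in G9gl. The 3 values of each group lay close together and far from the other group, with a log2 fold change of 0.43 ± 0.048 (SE, limma adjusted p 0.00026). Nfkbie encodes IkB epsilon, a slower feedback inhibitor prominent in B cells (chromosome 17, 45555703 to 45563169). It had 83.3, 87.6 and 91.0 FPKM in WT and 102, 128 and 132 FPKM in G9gl, where replicate 1 was the lowest (log2 fold change 0.45 ± 0.094 SE, limma adjusted p 0.0074). Nfkbib, the gene of IkB beta, did not pass, at 59.6, 65.8 and 62.7 FPKM in WT and 68.9, 65.7 and 72.4 FPKM in G9gl (adjusted p 0.16, interval -0.01 to 0.28).

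The summed FPKM of the 3 classical IkB genes was 1.36, 1.38 and 1.44 times that of the 5 subunit genes in WT replicates 1, 2 and 3. It was 1.72, 1.72 and 1.797 times in G9gl. The inhibitor sum itself was 539 ± 17.5 FPKM in WT and 715 ± 7.28 FPKM in G9gl, a wider difference than that between the subunit sums. Scaling between libraries cancels in this ratio, which was higher in each G9gl library than in any WT library. It carries no test, since its genes were chosen with results known. The subunit sum includes Nfkb2, whose precursor product is itself an inhibitor, so the ratio is not one of inhibitors to the dimers they hold.

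The nuclear IkB genes went apart. Nfkbiz encodes IkB zeta, a cofactor that Toll-like receptor signals induce (chromosome 16, 55811375 to 55838899). It had 13.9, 13.2 and 12.5 FPKM in WT and 28.5, 22.4 and 24.3 FPKM in G9gl. Its 1.83-fold rise was the second largest among the members (log2 fold change 0.87 ± 0.096 SE, limma adjusted p 0.00025). Nfkbid encodes IkB NS, a nuclear regulator needed for some B cell responses (chromosome 7, 30421732 to 30428746). It had 63.7, 66.4 and 64.8 FPKM in WT and 49.4, 35.4 and 41.4 FPKM in G9gl, the deepest fall among the members at 1.55-fold (log2 fold change -0.63 ± 0.10 SE, limma adjusted p 0.0024). The ratio of Nfkbiz to Nfkbid FPKM was 0.192 to 0.217 in WT and 0.576 to 0.634 in G9gl, so Nfkbid stayed the more abundant of the pair in every library.

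Bcl3, a nuclear IkB that works with p50 or p52 homodimers, did not pass. It had 86.9, 90.8 and 98.4 FPKM in WT and 127, 81.0 and 79.4 FPKM in G9gl, so that replicate 1 lay above and replicates 2 and 3 below all WT libraries. The log2 fold change was 0.02 with all libraries (adjusted p 0.93) and -0.19 without G9gl replicate 1 (adjusted p 0.071).

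**Figure D3:**
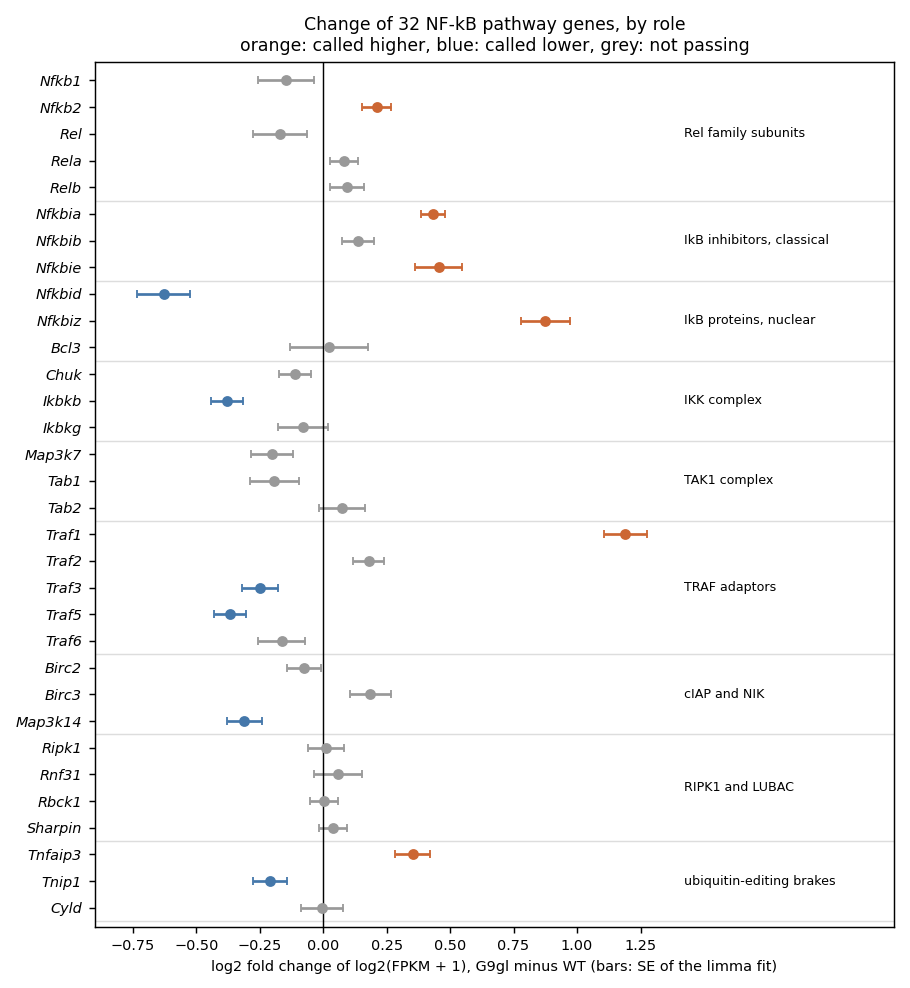
Log2 fold change of log2(FPKM + 1), G9gl minus WT, for the 32 members in order of role, with the SE of the limma fit as bars. Orange marks called higher, blue called lower and grey not passing. The 4 genes of RIPK1 and the linear ubiquitin ligase sit at 0.00 to 0.06, while the nuclear IkB genes spread from -0.63 to 0.87.

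Ikbkb, the gene of IKK beta, the catalytic subunit that drives the canonical pathway, fell by 0.38 on the log2 scale (chromosome 8, 22659212 to 22706589). It had 111, 121 and 109 FPKM in WT and 85.6, 84.1 and 92.1 FPKM in G9gl, a wide gap relative to the spread of either group (SE 0.063, limma adjusted p 0.0025). Chuk encodes IKK alpha, the catalytic subunit the alternative pathway needs. Its values, 38.3, 40.3 and 38.7 FPKM in WT and 36.8, 34.7 and 37.0 FPKM in G9gl, did not overlap but did not pass (adjusted p 0.23, interval -0.25 to 0.03), and passed as lower after rescaling to a common total. The ratio of Ikbkb to Chuk FPKM was 2.82 to 3.004 in WT and 2.33 to 2.49 in G9gl. Ikbkg, the gene of the scaffold NEMO, had 12.1 to 15.1 FPKM in WT and 12.4 to 14.0 FPKM in G9gl (adjusted p 0.61).

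The TAK1 genes upstream of IKK were among the least abundant members and did not pass. Map3k7, which encodes TAK1, had 16.5, 17.6 and 15.2 FPKM in WT and 14.1, 13.5 and 14.8 FPKM in G9gl (adjusted p 0.11, interval -0.39 to -0.01). Tab1, an activator of TAK1, had 10.7 to 12.9 FPKM in WT and 9.41 to 10.5 FPKM in G9gl (adjusted p 0.18), and both passed as lower after rescaling to a common total. Tab2, which links TAK1 to ubiquitin chains, had 10.2 to 12.1 FPKM in WT and 11.3 to 12.2 FPKM in G9gl (adjusted p 0.59).

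The TRAF adaptors, which join receptors of the tumour necrosis factor family to kinases and ubiquitin ligases, showed the largest change and changes in both directions. Traf1 lacks the ubiquitin ligase domain of the other TRAF proteins, partners TRAF2 and is a well-known NF-kB target (chromosome 2, 34941750 to 34961772). It had 15.9, 16.2 and 16.0 FPKM in WT and 33.4, 40.9 and 39.5 FPKM in G9gl. WT was tight and every G9gl library more than doubled it, a 2.28-fold rise (log2 fold change 1.19 ± 0.086 SE, limma adjusted p 2.1e-05). Traf2 is the partner that recruits cIAP, and did not pass with 37.2, 39.5 and 40.8 FPKM in WT and 44.9, 44.4 and 43.9 FPKM in G9gl (adjusted p 0.065, interval 0.04 to 0.32). It passed as higher (adjusted p 0.029) after correction for GC content and transcript length, an alternative chosen after seeing the data. The ratio of Traf1 to Traf2 FPKM was 0.391 to 0.427 in WT and 0.743 to 0.921 in G9gl.

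Traf5, a relative of Traf2 in CD40 and CD27 signalling, fell 1.29-fold (chromosome 1, 191997205 to 192092559). It had 102, 102 and 100.1 FPKM in WT and 72.3, 83.6 and 79.2 FPKM in G9gl, with WT values close together (log2 fold change -0.37 ± 0.063 SE, limma adjusted p 0.0031). Traf3 holds NIK for degradation and so restrains the alternative pathway (chromosome 12, 111166370 to 111267153). It had 22.0, 22.6 and 21.9 FPKM in WT and 17.5, 19.3 and 18.7 FPKM in G9gl (log2 fold change -0.25 ± 0.071 SE, limma adjusted p 0.034), without overlap. The call was lost when any 1 of the 6 libraries was left out (adjusted p 0.056 to 0.104) and after the correction for GC content and length (0.220). Traf3 lies 1.99 Mb from the immunoglobulin heavy chain locus Igh, and where the heavy chain was inserted is not given in the labels. Of 43 tested genes within 3 Mb of that locus 5 were higher and 10 lower (34.9% called, beside 23.4% of all tested genes). The part of this position in the Traf3 result was not tested. Traf6, the adaptor of Toll-like and interleukin-1 receptors, averaged 15.2 ± 0.754 FPKM in WT against 13.5 ± 1.37 in G9gl and did not pass (adjusted p 0.24).

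Map3k14 encodes NIK, the kinase that sets off the alternative pathway, and fell 1.24-fold (chromosome 11, 103219762 to 103267472). It had 21.3, 21.8 and 22.4 FPKM in WT and 17.4, 16.8 and 17.9 FPKM in G9gl, with each group inside a narrow band (log2 fold change -0.31 ± 0.070 SE, limma adjusted p 0.011). After the same correction the log2 fold change was -0.16 and the call was lost (adjusted p 0.115). Birc3, the gene of cIAP2 and an NF-kB target, had 123, 129 and 124 FPKM in WT and 164, 130.2 and 137 FPKM in G9gl. All G9gl libraries were above WT, replicate 2 by a small margin and replicate 1 by far the most, and the gene did not pass (adjusted p 0.13, interval 0.00 to 0.37). Its neighbour Birc2, which encodes cIAP1, had 36.6 to 39.4 FPKM in WT and 34.2 to 38.1 FPKM in G9gl (adjusted p 0.47). The proteins are close relatives, and fragments of the 2 transcripts could in part be shared.

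RIPK1, a scaffold kinase below death receptors, and the linear ubiquitin ligase LUBAC gave no call. Ripk1 had 17.7 to 18.99 FPKM in WT and 18.1 to 19.1 FPKM in G9gl. Of the LUBAC genes, Rnf31, the catalytic subunit HOIP, had 29.7 to 37.5 and 33.8 to 38.3 FPKM in WT and G9gl, Rbck1, the gene of HOIL-1, 113 to 125 and 119 to 121 FPKM, and Sharpin 65.7 to 70.5 and 68.3 to 70.1 FPKM. None of the 4 passed, with adjusted p from 0.65 to 0.97, and the widest 95% interval, that of Rnf31, ran from -0.15 to 0.27. The G9gl ranges lay inside the WT ranges for Rbck1 and Sharpin.

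The deubiquitinases and their adaptor, which switch the pathway off, split. Tnfaip3 encodes A20, a ubiquitin-editing brake whose loss in B cells is tied to autoimmunity (chromosome 10, 19000910 to 19015657). It had 24.1, 25.8 and 26.5 FPKM in WT and 34.4, 32.5 and 31.4 FPKM in G9gl, a 1.28-fold rise without overlap (log2 fold change 0.35 ± 0.070 SE, limma adjusted p 0.0061). Tnip1, which encodes the A20-binding adaptor ABIN1, had 24.97, 25.3 and 24.1 FPKM in WT and 21.5, 20.8 and 21.6 FPKM in G9gl (chromosome 11, 54910785 to 54962917). Its groups did not overlap, with a log2 fold change of -0.21 ± 0.066 (SE, limma adjusted p 0.048), but the call was lost in 9 of 17 other settings, each removal of 1 library among them (adjusted p 0.073 to 0.151). Cyld, a deubiquitinase that removes linear and K63-type chains, had 19.9 to 23.0 FPKM in WT and 19.7 to 22.2 FPKM in G9gl (adjusted p 0.96, interval -0.19 to 0.18).

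**Figure D4:**
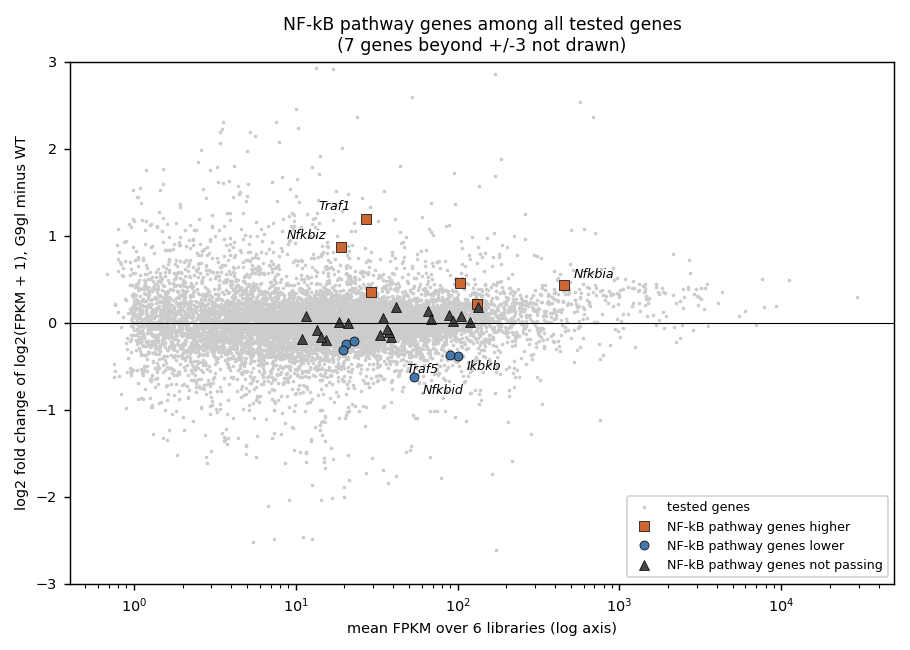
Log2 fold change (vertical axis, G9gl minus WT) against mean FPKM over 6 libraries (log axis) for all tested genes in grey and the members in colour; 7 genes beyond 3 in size are not drawn. The members lie in the middle and upper range of levels, with Nfkbia at the right, Traf1 and Nfkbiz highest and Nfkbid lowest.

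Sorted by pathway, calls went both ways in each arm, beside 23.4% of all tested genes called in either direction. Of 19 members assigned to the canonical pathway, Nfkbia, Nfkbie and Tnfaip3 were higher and Ikbkb and Tnip1 lower, with a median log2 fold change of 0.0032. The other 14, among them the inhibitor genes Nfkbib and Cyld and the subunit genes Nfkb1, Rel and Rela, did not pass. Of 8 members of the alternative pathway, Nfkb2 was higher and Map3k14 and Traf3 lower, with a median of 0.0096. Of 5 members in neither or both, Nfkbiz and Traf1 were higher and Nfkbid and Traf5 lower. The difference between the 2 arms was not tested.

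Of 12 tested receptors that feed the pathway (17 on the list, all in the table) 1 was higher and 4 lower, Tnfrsf13b, Tnfrsf13c, Tnfrsf1b and Tlr1. Their median log2 fold change was -0.21, and of all tested genes 11.8% were higher and 11.6% lower. Tnfrsf13c, the BAFF receptor gene, had 396, 405 and 394 FPKM in WT and 242, 253 and 259 FPKM in G9gl (limma adjusted p 2.1e-05). Tnfrsf13b, the gene of its relative TACI, had 103, 118 and 99.2 FPKM in WT and 53.0, 70.7 and 62.0 FPKM in G9gl (adjusted p 0.00072). Both receptors bind BAFF, the survival factor of mature B cells, and their libraries did not overlap. Tnfrsf1b, a tumour necrosis factor receptor gene, fell 1.59-fold and Tlr1 1.51-fold. The receptor gene that rose was Tlr7, an RNA sensor, from 11.6 ± 0.535 to 17.9 ± 2.23 FPKM (adjusted p 0.0028).

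Adaptors and kinases between those receptors and IKK gave 3 higher and 5 lower of 28 tested (29 on the list), with a median log2 fold change of -0.041. Protein kinase C beta, BCL10 and MALT1 carry the antigen receptor signal to IKK. Within that route Prkcb fell 1.53-fold and Malt1 1.40-fold, from 54.3 ± 2.90 to 38.4 ± 1.81 FPKM (limma adjusted p 0.00084), while Bcl10 rose 1.17-fold (adjusted p 0.018). Tnip2, the gene of ABIN2, a relative of Tnip1, rose 1.68-fold from 17.9 ± 1.17 to 30.8 ± 1.72 FPKM (adjusted p 0.00018). Ikbke, a kinase gene related to IKK that is induced by interferon and NF-kB, rose 1.80-fold, from 4.64 ± 0.930 to 9.08 ± 0.460 FPKM (adjusted p 0.0015). Irak3, which encodes an inhibitory kinase of Toll-like receptor signals, fell 1.40-fold, and Map3k8 and Map3k3 were the remaining 2 called lower.

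Known NF-kB target genes outside the member list were called in both directions, beside 11.8% of all tested genes higher and 11.6% lower. The list gave 10 higher and 7 lower of 24 tested (30 on the list), with a median of 0.041. Among those higher, Bcl2a1b, a survival gene with near copies that can share fragments, had 72.9, 73.8 and 67.8 FPKM in WT and 121, 152 and 143 FPKM in G9gl (limma adjusted p 8.1e-05). The chemokine genes Ccl4 and Ccl3 rose 7.62-fold and 4.20-fold from levels of 2.38 ± 0.943 and 0.707 ± 0.326 FPKM in WT. Macrophages are among the cells that make both, and which cells gave the rise was not tested. Vcam1, 1 of the 10 called higher, is also on the macrophage list, for which it is named here after its values were seen. Among those lower, Irf4, a transcription factor gene of activated B cells, had 26.8, 26.3 and 25.9 FPKM in WT and 17.6, 18.3 and 17.8 FPKM in G9gl (adjusted p 0.00052). Ebi3, a cytokine subunit gene, fell 2.21-fold, with 10.8 and 11.1 FPKM in G9gl replicates 2 and 3 but 4.74 FPKM in replicate 1. Cd86, a costimulatory ligand gene, fell 1.43-fold. Genes named as NF-kB targets thus changed in opposite directions in the same libraries.

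**Figure D5:**
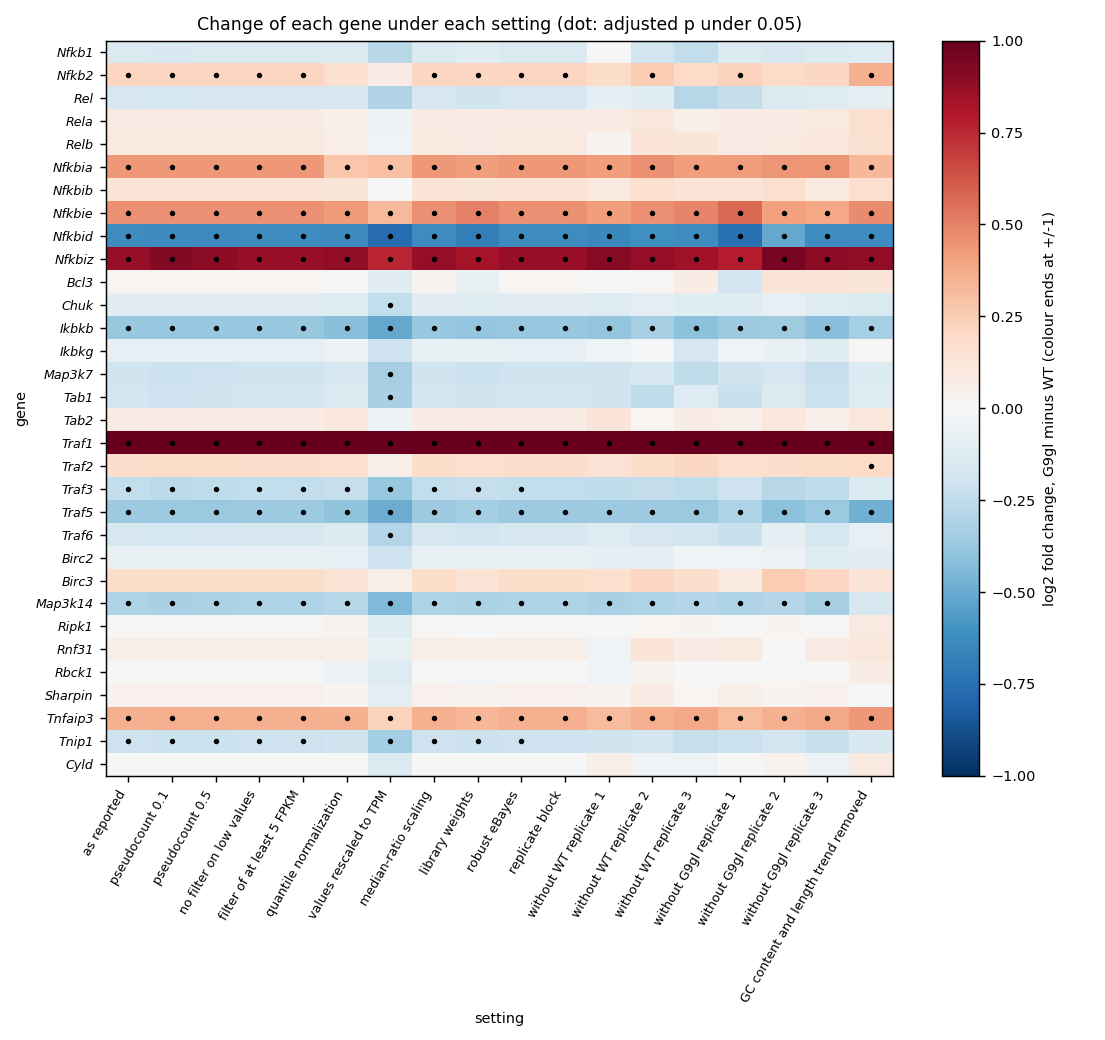
Log2 fold change (colour, G9gl minus WT, ending at 1 in size) of each member under the reported fit and 17 other settings, with a dot where the adjusted p is under 0.05. Rows of Traf1, Nfkbia, Nfkbie, Nfkbiz, Tnfaip3, Nfkbid, Ikbkb and Traf5 hold a dot in every column, while those of Nfkb2, Map3k14, Traf3 and Tnip1 do not.

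Across the members, the calls for Traf1, Nfkbia, Nfkbie, Nfkbiz, Tnfaip3, Nfkbid, Ikbkb and Traf5 held in all 17 other settings. Those for Map3k14, Nfkb2, Traf3 and Tnip1 were lost in 1, 6, 8 and 9 of them. Within G9gl the replicates differed most for Bcl3, whose highest value was 1.595 times its lowest, then Nfkbid (1.39 times) and Nfkbie (1.297 times). Within WT the widest were Nfkb1 (1.399 times) and Rel (1.31 times), and the narrowest Traf5 and Traf1 (both 1.02 times). WT replicate 2 held the highest WT value for 18 of the 32 members, and G9gl replicates 1 and 3 the highest G9gl value for 12 each.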

How the data were processed

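Total RNA of sorted follicular B cells (3 WT and 3 G9gl libraries) was extracted with Trizol, made into full-length cDNA with a SMART-Seq HT kit and into Nextera libraries, which keep no strand, per the labels' protocols. The authors deposited 1 table of FPKM values per library. TopHat2 2.0.13, Bowtie2 2.2.3, SAMtools 0.1.19, Cufflinks 2.2.1 and mm10 are named in the submitters' processing notes, and the sources used here do not give the annotation, filters or scaling. Since FPKM is no count, log2(FPKM + 1) was fitted with limma 3.58.1 (R 4.3.3, eBayes with a trend), genotype as the only term, over 10122 genes with at least 1 FPKM in 3 or more of 6 libraries. P-values were adjusted by Benjamini-Hochberg over all of them. Each fold change is one of FPKM + 1, and so understates that of a low gene. FPKM carries the SD over 3 libraries, a log2 fold change the SE of the fit.

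The members, pathway split, gene lists and marker lists were chosen with earlier results of these data known. All 32 members are named. From each list of other pathway genes, up to 3 called genes with the smallest p in each direction are named, and further ones only to complete a count or where the text says so. The stress list was added after seeing the data. Locations are from GENCODE vM21 (GRCm38, which is mm10), and promoter sequences from RefSeq (GRCm38.p6). The fit was tested on simulated data. Other settings were 2 pseudocounts, 2 filters, 3 scalings, library weights, robust moderation, a replicate block, leaving out each library, and a correction for GC content and length (96% of tested genes had both) added after seeing the data.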

Additional observations from a re-analysis of the deposited data

How the results depend on the processing

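Traf1, Nfkbia, Nfkbie, Nfkbiz, Tnfaip3, Nfkbid, Ikbkb and Traf5 kept their direction and their side of the threshold in all 17 other settings. Rescaling to TPM gave 730 genes higher and 2493 lower, against 1191 and 1174 as reported, and 10 members lower, with Chuk, Map3k7, Tab1 and Traf6 added. It also lowered the log2 fold change of every member, which turned members that did not pass: Rela (-0.0494), Relb (-0.0377), Bcl3 (-0.1091), Tab2 (-0.0496), Ripk1 (-0.119), Rnf31 (-0.0719), Rbck1 (-0.1292) and Sharpin (-0.0925). Removing the GC content and length trend gave 7 members higher and 3 lower, beside 1076 and 1114 of 9714 tested genes. The median log2 fold change was then 0.0814 over the members and -0.0081 over all tested genes. Removal of that trend turned Ikbkg (0.0083), Sharpin (-0.0044) and Cyld (0.0863). Quantile normalization turned Bcl3 (-0.0119), Rbck1 (-0.0541) and Cyld (0.0072), and library weights turned Bcl3 (-0.0751), Rbck1 (-0.0106) and Cyld (0.0016). None of the members that turned was called in any of these fits, and the cause of each turn was not tested.

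Leaving out 1 library gave 827 to 1136 genes higher and 718 to 1172 lower, the lowest of both without WT replicate 2, with 5 to 6 members higher and 4 lower each time. The log2 fold change then ranged from -0.1947 to 0.1389 for Bcl3, from -0.02 to 0.0296 for Ripk1, from -0.0351 to 0.1286 for Rnf31, from -0.0339 to 0.0388 for Rbck1 and from -0.0476 to 0.0558 for Cyld. Same-numbered libraries of the 2 genotypes correlated at 0.099, -0.069 and 0.021 in their deviations. These values gave no sign that the numbers pair the samples, but cannot exclude it. With the replicate number as a block (replicate block), 1044 genes were higher and 988 lower, and 6 members higher and 4 lower, since Traf3 (adjusted p 0.064) and Tnip1 (0.098) no longer passed. WT replicate 3 and G9gl replicate 2 correlated most closely (0.157).

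FPKM carries no counts, so no counting interval stands beside a value, and depth is known only as an estimate. Members that did not pass had 95% intervals as wide as that of Bcl3, -0.32 to 0.37 on the log2 scale, and a change inside them was not detectable here. Nfkb2, Traf5, Map3k14, Nfkbib, Bcl3, Ikbkg, Ripk1 and Rnf31 share exon bases with another gene, whose fragments cannot be fully separated. For Map3k14 and Rnf31 that gene lies on the same strand, so a library with strand would not separate it either. The same holds for Mir3473c, which shares 65 bases with Traf5, and for Gm17084, which shares 511 bases with Ripk1. Traf5 and Ripk1 also share bases with a gene on the opposite strand. Irf9, which shares 123 bases with Rnf31, was called higher (log2 fold change 0.43, limma adjusted p 0.0024). The immunoglobulin genes that would check the genotype were not analysed here.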

Other observations

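Chromosomal neighbours of the called members moved in both directions, beside 11.8% of all tested genes higher and 11.6% lower. Tyrobp, which encodes the signalling adaptor DAP12, and Hcst, which encodes its relative DAP10, lie just upstream of Nfkbid on chromosome 7 (30413760 to 30417585 and 30417712 to 30419854). Both fell with Nfkbid, by 1.41 and 1.01 on the log2 scale (limma adjusted p 3.0e-06 and 9.5e-05), while Proser3 and Hspb6 on the other side did not pass. Downstream of Nfkbie, Slc35b2 and the chaperone gene Hsp90ab1 rose with it, with log2 fold changes of 0.39 and 0.43 (adjusted p 0.0061 and 0.0017), and Hsp90ab1 is on the stress list.

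Apoe, the apolipoprotein E gene, lies between Relb and Bcl3 (chromosome 7, 19696109 to 19699188) and rose by 2.37 on the log2 scale (limma adjusted p 9.4e-07), and neither NF-kB gene passed. The 4 nearest tested genes around Rela, Rnaseh2c, Kat5, Sipa1 and Map3k11, were all lower, with log2 fold changes from -0.42 to -0.24 (adjusted p 0.0012 to 0.042), while Rela did not pass. Beside Nfkbiz, Nxpe3 (0.51) was higher and Cep97 (-0.33) lower. On its other side the nearest tested protein-coding genes, Alcam (1.54, higher) and Cblb (-0.80, lower), are far off. They end at 52454074 and 52208048, while Nfkbiz starts at 55811375. None of the 4 neighbours of Ikbkb, Vdac3, Polb, Ap3m2 and Kat6a, passed. These neighbours were singled out after their values were seen. Of all tested genes 11.6% were lower and 23.4% were called in either direction. A shared change of neighbouring genes was not tested.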
